A study of Mus musculus with 12 samples.

Results

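The genes described here are 38 ligands and receptors of axon guidance, chosen by gene symbol from a named list, and all 38 were found among the 12158 genes of the expression table. They fall into a Slit-Robo group of 5 genes, a netrin group of 7, an ephrin group of 11 and a semaphorin-plexin group of 15. Of the 38, 22 encode receptors or co-receptors and 16 encode ligands. The choice did not use measured values, although the list was drawn up with earlier results of these data in view.

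Growing axons steer by cues that attract or repel their growth cones. Slits, netrins and class 3 semaphorins are secreted, whereas ephrins and several other semaphorins stay on the cell surface, and each binds receptors of its own family on the axon (Robo, Dcc and Unc5, Eph, plexin and neuropilin proteins). In the forebrain these systems are known for guiding the callosal, thalamocortical and corticofugal tracts, and many of the same proteins are used again at synapses and in glia after the tracts have formed.

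RNA was measured in dissected mouse forebrain (strain C57BL/6N) at the embryonic stages e12.5, e14.5 and e17.5 (days after conception), on the day of birth (P0) and in adults, labelled P56 and described in the protocol as older than that. At each stage the study sampled Chd8+/del5 animals, which carry a germline mutation in 1 copy of the chromatin remodeller gene Chd8, and wild-type littermates. The labels list 10 RNA samples, 1 per genotype and stage, but the table holds 44 libraries. There are 8 for e12.5, 9 for e14.5, 10 for e17.5, 11 for P0 and 6 for adults. Column names give the stage, and no label explains their other codes, so no library could be assigned to a genotype and heterozygous and wild-type animals were not compared. Each stage therefore mixes both genotypes. Whether each library came from a separate animal is not stated, so ranges show the spread between libraries only.

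Values were taken as log2 RPKM, a read count corrected for the length of the gene and the size of the library, so levels can be set against each other between genes. Raw totals are not in the table and the depth of each library is unknown, although steps between low values gave relative depths that spanned 1.88 times over the e14.5 libraries, and the median over all genes lay between 3.60 and 3.74 in every library. A gene was called higher or lower at a stage when its range over libraries did not overlap that of the other stage, and its difference is that of the stage medians. No p-value is given. Low values share a finite floor, so the scale holds a prior count of unstated size, which makes folds of low genes too small. In bulk tissue, fewer cells of a type and less RNA per cell cannot be told apart. Sequencing was paired-end with 100 bp reads at e12.5 and single-end with 50 bp reads at the other stages, so read type and stage cannot be told apart in any comparison with e12.5.

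All 10 telencephalon markers on a fixed list, among them Emx1 and Tbr1, were in the table, and their summed level ranged from 326 to 1070 RPKM over the 44 libraries. Of 8 hindbrain and midbrain markers, only En1 was in the table, at 7.09 RPKM or less. Chd8 itself had stage medians of 3.72 to 4.31 log2 RPKM, with single libraries from 3.08 to 4.96, and was not used to group them. Adult library 1 stood apart from the other 5 adults. A list drawn up for newborn olfactory bulb neurons held 5 genes, such as Dcx and Sp8, all in the table. It summed to 96.1 RPKM in library 1, against 9.17 to 14 in the others. The list does not single out bulb neurons, since its sum already had a median of 229 RPKM at e12.5. Dcx alone had a median of 102 RPKM there. Pericyte and meninges markers of adult library 1 summed to 46.4 against 14.2 to 22.4. Its oligodendrocyte markers, at 886 RPKM, were below the 1240 to 2090 of the others. So were its astrocyte (420 against 490 to 739) and microglia markers (136 against 191 to 259). Its dividing progenitor (51.2 against 28.1 to 47.2) and telencephalon markers (505 against 362 to 457) were above. Its neuron and endothelial sums lay within the range of the others. Xist, the RNA of the inactive X chromosome, was above 0 log2 RPKM in 9 of 11 P0 libraries, in 5 of 9 at e14.5 and in 1 of 6 adults, which was not library 1, so by this measure the sexes were mixed in different proportions. The part of sex in the results was not tested.

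RefSeq promoter sequences of build GRCm38.p6 were matched by symbol for 29 of the 38 genes. The promoters of 4 genes with opposite changes from birth to adulthood are printed. Draxin (chr4:148130649-148130948, minus strand) and Epha3 (chr16:63864126-63864425, minus strand) had the largest falls over that time. Unc5a (chr13:54949161-54949460, plus strand) and Sema7a (chr9:57939862-57940161, plus strand) rose in both main comparisons. Each window of 300 bases holds the sequence before the annotated start of the transcript and its first bases, 5′ to 3′ on the strand of the gene. Capitals mark matches to the GC box GGGCGG or its reverse complement CCGCCC.
Draxin: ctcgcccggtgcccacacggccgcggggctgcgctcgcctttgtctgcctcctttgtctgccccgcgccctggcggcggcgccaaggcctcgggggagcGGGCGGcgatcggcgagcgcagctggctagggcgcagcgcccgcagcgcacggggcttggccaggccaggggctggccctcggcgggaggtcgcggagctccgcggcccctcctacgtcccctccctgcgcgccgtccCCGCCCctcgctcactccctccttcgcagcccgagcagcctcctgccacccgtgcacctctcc
Epha3: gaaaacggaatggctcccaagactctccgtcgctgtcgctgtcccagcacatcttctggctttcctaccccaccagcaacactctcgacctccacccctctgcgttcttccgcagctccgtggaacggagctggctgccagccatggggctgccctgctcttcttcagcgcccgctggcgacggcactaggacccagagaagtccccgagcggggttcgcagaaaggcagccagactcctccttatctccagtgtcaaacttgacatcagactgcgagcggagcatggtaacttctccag
Unc5a: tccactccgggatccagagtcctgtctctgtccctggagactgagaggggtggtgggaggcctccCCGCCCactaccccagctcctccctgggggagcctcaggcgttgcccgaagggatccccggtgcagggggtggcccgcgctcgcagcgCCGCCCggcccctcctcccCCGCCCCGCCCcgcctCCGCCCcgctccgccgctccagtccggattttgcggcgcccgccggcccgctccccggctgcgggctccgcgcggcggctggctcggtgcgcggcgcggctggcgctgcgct
Sema7a: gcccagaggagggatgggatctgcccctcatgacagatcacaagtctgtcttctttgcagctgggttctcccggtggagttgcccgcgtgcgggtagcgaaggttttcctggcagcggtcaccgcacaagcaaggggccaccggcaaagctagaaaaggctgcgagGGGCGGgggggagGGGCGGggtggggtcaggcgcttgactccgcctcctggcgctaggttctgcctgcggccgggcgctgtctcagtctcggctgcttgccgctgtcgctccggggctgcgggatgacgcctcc
Unc5a held 5 GC boxes in 78.3% G and C, Draxin 2 in 78%, Sema7a 2 in 67.3%, and Epha3 0 in 60.7%. Draxin and Sema7a held the same number. Any link between promoter sequence and the level of a gene was not tested. None of the 4 held TATAAA on either strand. Over the 33 promoters of the 29 matched genes, 66.7% held a GC box, against 35.7% of all 32851 promoters, and 6.06% held TATAAA, against 13.6%. All promoters covered 27025 genes and were not limited to the 12158 genes of the expression table. A comparison with promoters of those genes alone was not made. The GC boxes were searched on both strands, with overlapping matches counted separately. The median share of G and C was 67.0% in the promoters of the guidance genes and 52.7% in all promoters. A match is a description of the sequence and not a binding site.

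From e14.5 to P0, a period in which the major forebrain tracts are laid down, most guidance genes stayed within overlapping ranges. Of the 38 genes, 8 were higher at P0, when 22.7% of all genes were, and 4 were lower, when 23.1% of all genes were, so the count of higher genes lay near the background and that of lower genes below it. The median difference over the 38 was −0.06 log2, beside −0.04 over all 12102 genes that passed a filter on low values, which all 38 passed. The 8 that rose were Robo2, Unc5a, Unc5c, Epha7, Sema3c, Sema6a, Sema7a and Plxnd1. The 4 that fell were Dcc, Unc5b, Epha3 and Efnb1. None of the 15 semaphorin-plexin genes fell, while 4 of them rose. After quantile normalization 1 of them, Sema5a, fell, by 1.12 log2.

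From P0 to adulthood more guidance genes fell than rose. Of the 38, 20 were lower in adults, when 25.2% of all genes were, and 6 were higher, when 29.3% were. Their median difference was −0.79 log2, beside −0.01 over all genes. The fall covered receptors (11 of 22 lower, 3 higher) as well as ligands (9 of 16 lower, 3 higher). By family, 7 of 11 ephrin genes were lower with a group median of −1.10, 8 of 15 semaphorin-plexin genes with −0.56, 3 of 7 netrin genes with −0.20 and 2 of 5 Slit-Robo genes with −0.20. The 6 genes that rose were Slit3, Unc5a, Unc5b, Ephb3, Efna5 and Sema7a. Marker sums also moved between these stages. Oligodendrocyte markers (8 of 8 in the table) went from a median of 118 to 1440 RPKM and astrocyte markers (6 of 6) from 164 to 597. Microglia markers (6 of 6) went from 55.5 to 209. The list named for newborn olfactory bulb neurons (5 of 5) went from 220 to 11.9, and Dcx alone from 157 to 3.27. Neuron markers (6 of 6) summed to 3460 and 3430, but this sum combined opposite moves. Median levels fell for Tubb3 (1850 to 311 RPKM), Stmn2 (1110 to 271) and Map2 (238 to 144). They rose for Rbfox3 (51.7 to 94.6), Snap25 (153 to 2180) and Syt1 (84.2 to 478). The part of all these markers in the fall of the guidance genes was not tested. Both comparisons share the P0 libraries and so are not independent of each other.

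Adult library 1 was the highest of the 6 adults for all 20 of the guidance genes that were lower in adults, for 6 of the 12 with overlapping ranges and for none of the 6 that were higher. It was also the highest adult for 72.8% of the 3052 genes of the whole table that were lower in adults, and for 29.9% of all genes. Without it, in a comparison added after the data were seen, 22 of the 38 guidance genes were lower, when 30.0% of all genes were, and 6 were higher, when 31.2% were, with a median difference of −0.85 log2. The 2 genes added were Plxna2 and Plxna4, at −0.63 and −0.61 log2. The part of the markers that stood apart in this library was not tested.

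**Figure D1:**
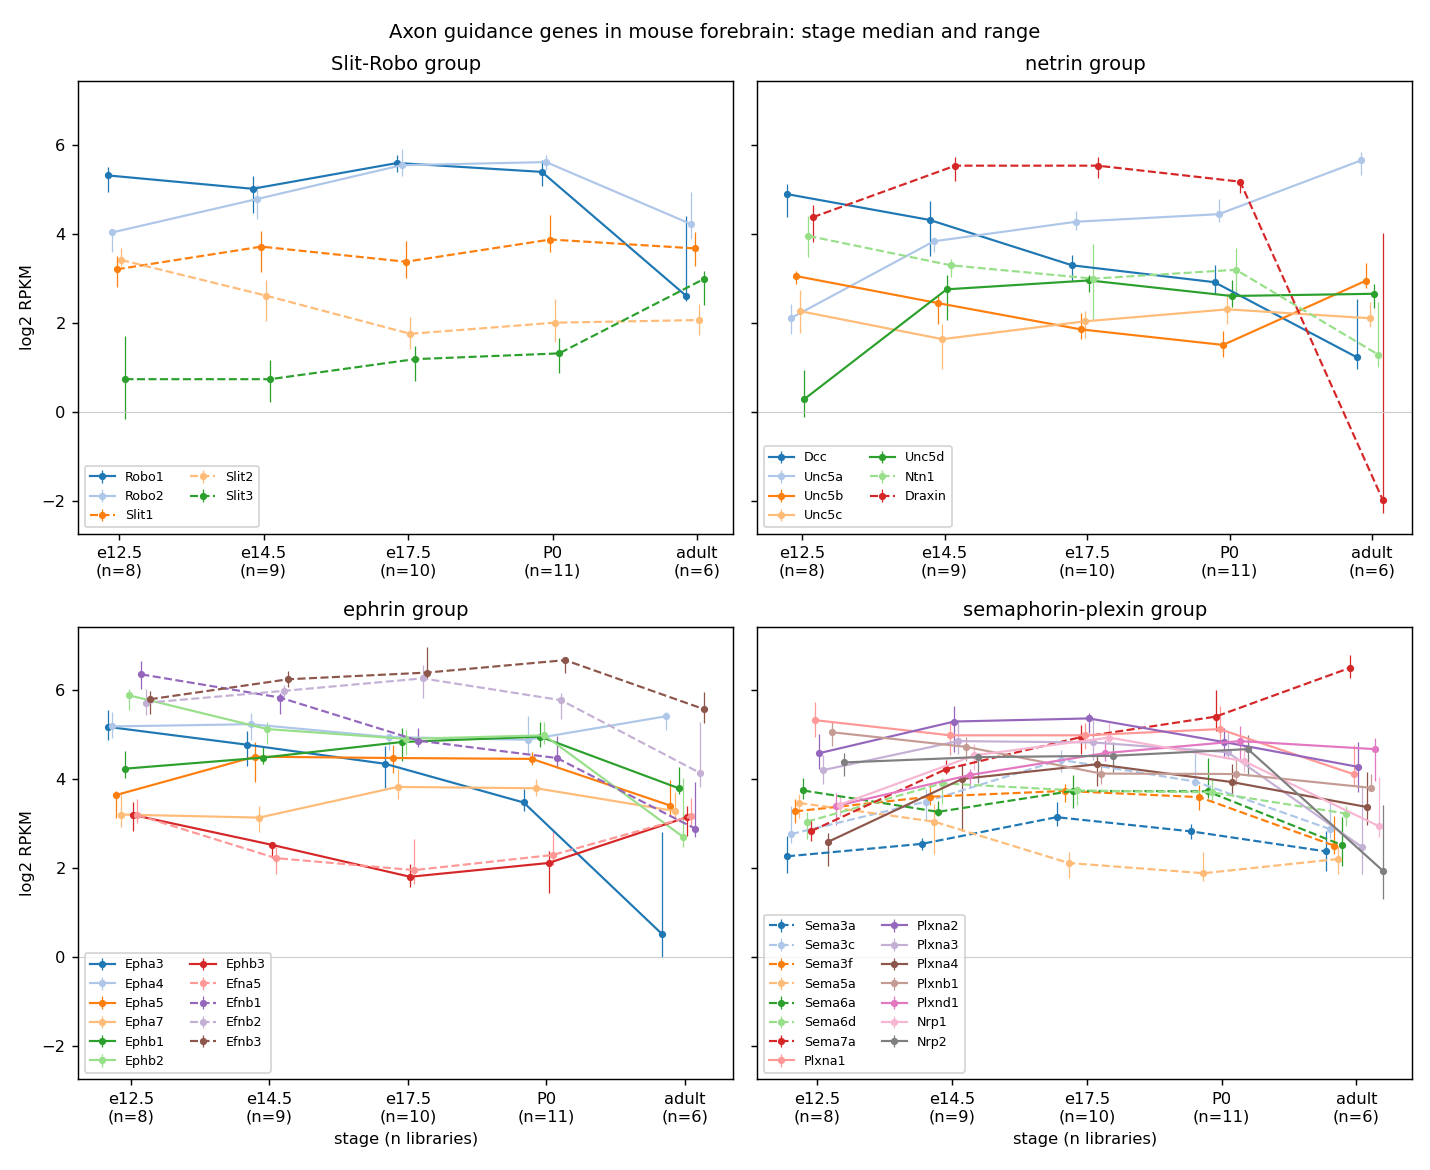
Stage medians (points) and ranges over libraries (vertical lines) of the 38 genes on the log2 RPKM scale, by family, with receptors as solid and ligands as dashed lines. Draxin drops from 5.17 at P0 to −1.98 in adults, with 1 adult library at 4.01, while Sema7a climbs from 2.84 at e12.5 to 6.51 in adults.

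**Figure D2:**
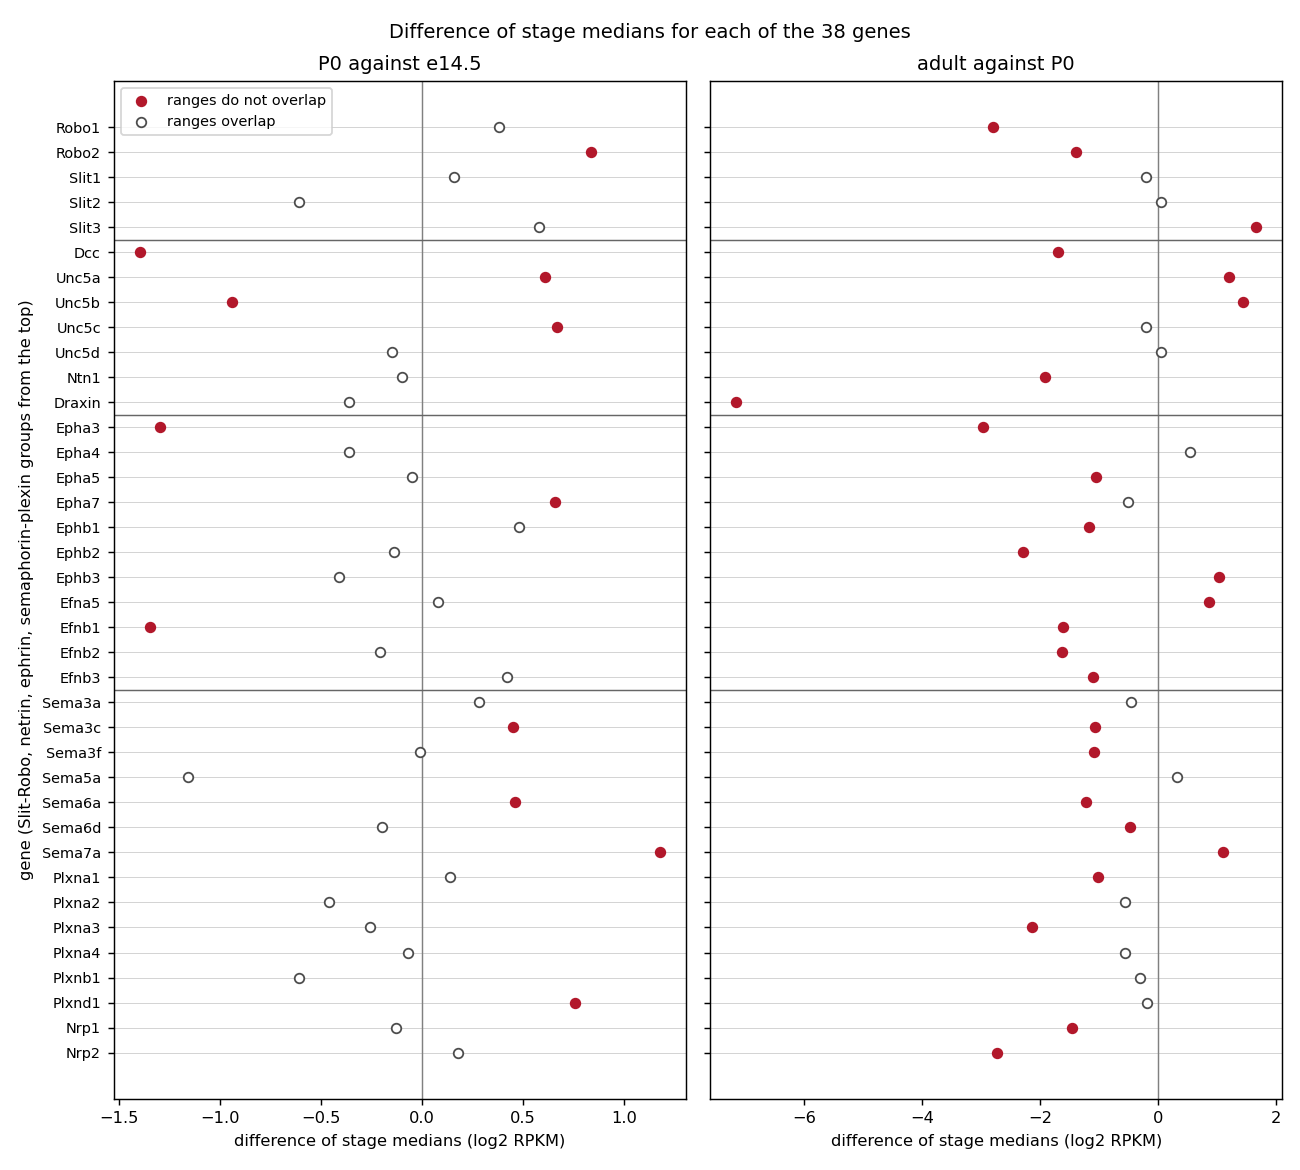
Difference of stage medians (log2 RPKM) for each gene, P0 against e14.5 on the left and adult against P0 on the right, on different scales; filled points have ranges that do not overlap. On the left 8 filled points lie above 0 and 4 below, and on the right 6 lie above and 20 below.

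In the Slit-Robo group, the receptors and ligands took different courses. Robo1, a receptor through which Slits repel axons, had medians of 5.31 (lowest library 4.94, highest 5.51) at e12.5, 5.01 (4.46 to 5.29) at e14.5, 5.59 (5.38 to 5.77) at e17.5 and 5.39 (5.08 to 5.65) at P0, and 2.60 (2.48 to 4.39) in adults. The adults lay below every P0 library, by 2.79 log2 or 6.90-fold between medians, and library 1 alone was above 2.94. Robo2, the closely related receptor, started lower, at 4.03 (3.60 to 4.11), rose to 4.78 (4.32 to 5.09) at e14.5 and 5.54 (5.30 to 5.91) at e17.5, and stood at 5.61 (5.43 to 5.77) at P0 and at 4.22 (3.88 to 4.94) in adults. The ranges of Robo2 at e12.5 and e14.5, at e14.5 and e17.5, and at P0 and adulthood did not overlap. Its fall to the adult level was 1.39 log2, or 2.62-fold.

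The 3 Slit ligands, secreted repellents, each had a course of their own. Slit1 varied least of the 3, with medians between 3.20 at e12.5 and 3.87 at P0, and its ranges overlapped in both main comparisons and in each pair of neighbouring stages. Slit2 was highest at e12.5, at 3.41 (3.28 to 3.68), lower at e14.5, at 2.61 (2.04 to 2.95), and between 1.75 and 2.06 at the 3 later stages. Slit3 was the lowest of the 38 genes at e14.5, e17.5 and P0, at 0.73 (0.22 to 1.17), 1.18 (0.68 to 1.47) and 1.31 (0.88 to 1.66). In adults it reached 2.98 (2.39 to 3.17), 1.67 log2 or 3.19-fold above P0, and every adult library lay above every P0 library. Slit3 was then 19th of the 38 in level.

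The netrin group held both the steepest fall and some of the clearest rises. Dcc, the receptor through which netrin 1 attracts axons, had medians of 4.89 (4.38 to 5.12) at e12.5, 4.31 (3.51 to 4.74) at e14.5, 3.29 (2.93 to 3.53) at e17.5, 2.91 (2.64 to 3.29) at P0 and 1.22 (0.96 to 2.53) in adults. It fell by 1.40 log2 from e14.5 to P0 (2.64-fold) and by 1.69 log2 from P0 to adulthood (3.23-fold). Up to birth, each stage overlapped with the next, so the fall from e14.5 to P0 was spread over 2 steps.

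Unc5a, an Unc5 receptor that mediates repulsion by netrin 1, moved the other way. Its medians were 2.11 (1.74 to 2.43) at e12.5, 3.83 (3.58 to 3.93) at e14.5, 4.27 (4.08 to 4.5) at e17.5, 4.44 (4.27 to 4.77) at P0 and 5.65 (5.33 to 5.84) in adults. It was 1.53-fold higher at P0 than at e14.5 and 2.31-fold higher in adults than at P0, and among the 38 genes it moved from 36th in level at e12.5 to 2nd in adults. Unc5b, another Unc5 receptor, also known from blood vessels, fell by 0.94 log2 from 2.44 (1.98 to 2.63) at e14.5 to 1.5 (1.22 to 1.81) at P0 and rose by 1.44 log2 to 2.94 (2.78 to 3.35) in adults. Unc5b was thus lower in the first main comparison and higher in the second, a pair of calls that was not counted over all genes. Endothelial markers (7 of 7 in the table) summed to 81.1 to 117 RPKM at e14.5, 71.0 to 102 at P0 and 67.5 to 92.5 in adults. After P0 this sum combined opposite moves. Median levels rose for Flt1 (3.39 to 9.17 RPKM), Esam (7.53 to 11.2), Pecam1 (7.14 to 9.81) and Tek (3.03 to 4.39). They fell for Cldn5 (47.4 to 30.2), Kdr (7.81 to 2.92) and Cdh5 (8.88 to 5.5). The part of these markers in the course of Unc5b was not tested.

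Unc5c, also a netrin receptor, rose by 0.67 log2, from 1.63 (0.97 to 1.96) at e14.5 to 2.30 (1.98 to 2.67) at P0 between ranges that only just missed each other, and overlapped between P0 and adults. Unc5d, the remaining Unc5 receptor, was the lowest of the 38 at e12.5, at 0.28 (−0.12 to 0.94), and 2.75 (2.07 to 3.07) at e14.5. That difference of 2.47 log2 was the largest of the 38 between those stages, and the later medians, 2.95, 2.60 and 2.65, stayed within overlapping ranges.

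Ntn1, which encodes netrin 1, had medians of 3.95 (3.48 to 4.39) at e12.5, 3.29 (3.03 to 3.44) at e14.5, 2.99 (2.05 to 3.76) at e17.5, 3.19 (2.65 to 3.69) at P0 and 1.28 (1.0 to 2.47) in adults. It was lower at e14.5 than at e12.5 and fell by 1.91 log2, or 3.76-fold, from P0 to adulthood, while the stages from e14.5 to P0 overlapped. Draxin, a secreted protein that binds Dcc and netrin 1 and is needed for forebrain commissures, rose from 4.37 (3.82 to 4.65) at e12.5 to 5.53 (5.19 to 5.72) at e14.5, and stood at 5.53 (5.25 to 5.72) at e17.5 and 5.17 (4.91 to 5.23) at P0. In 5 adult libraries it lay between −2.28 and −1.74, and in adult library 1 at 4.01. The difference between adult and P0 medians was −7.15 log2, or 142-fold, and −7.22 log2 without library 1, and it was the largest of the 38 genes in that comparison. Draxin was thus 4th to 6th of the 38 genes in level from e14.5 to P0 and the lowest in adults.

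**Figure D3:**
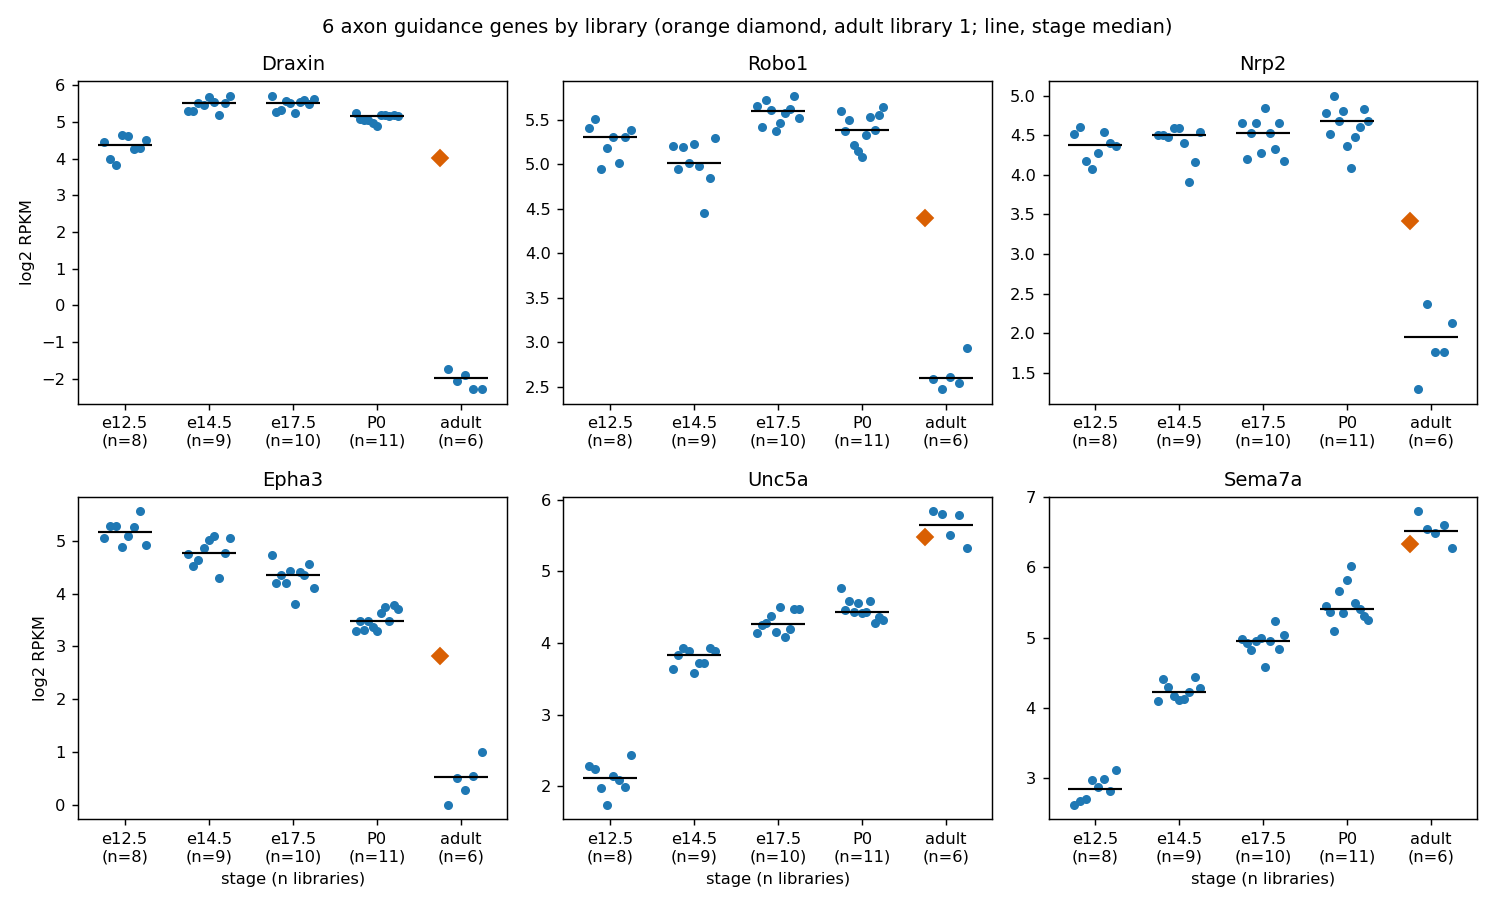
Level of 6 genes in each library (points, log2 RPKM, separate vertical scales), by stage, with the stage median as a line and adult library 1 as an orange diamond. For Draxin, Robo1, Nrp2 and Epha3 the diamond lies between the other adults and the P0 libraries, while for Unc5a and Sema7a it lies within the range of the other adults.

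In the ephrin group, 7 Eph receptors, tyrosine kinases that read ephrins on neighbouring cells, and 4 ephrins were measured. Epha3, a receptor for ephrin-A ligands, had medians of 5.18 (4.88 to 5.56) at e12.5, 4.78 (4.31 to 5.09) at e14.5, 4.35 (3.80 to 4.74) at e17.5, 3.48 (3.28 to 3.79) at P0 and 0.52 (highest library 2.82) in adults. It fell by 1.3 log2 from e14.5 to P0 and by 2.96 log2, or 7.77-fold, from P0 to adulthood, with no overlap in either comparison. It was also 1 of the 3 guidance genes that were lower at P0 than at e17.5, when 6.28% of all genes were. Epha4, which binds ephrins of both classes, kept a high level, with medians between 4.89 and 5.42, and overlapped at each step.

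Epha5, an ephrin-A receptor, stood between 4.46 and 4.51 from e14.5 to P0 and at 3.41 (3.20 to 3.98) in adults, a fall of 1.05 log2 from the P0 range of 4.32 to 4.61. Epha7, a further ephrin-A receptor, rose by 0.66 log2 from 3.14 (2.81 to 3.39) at e14.5 to 3.80 (3.62 to 4.0) at P0. Its adult median of 3.29 (3.12 to 3.72) overlapped with P0.

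The EphB receptors, which bind ephrin-B ligands, split in adults. Ephb2 was 5.89 (5.57 to 6.04) at e12.5, 5.13 (4.79 to 5.30) at e14.5, 4.91 (4.54 to 5.11) at e17.5, 4.99 (4.80 to 5.28) at P0 and 2.71 (2.47 to 4.04) in adults, where it had fallen by 2.28 log2 or 4.85-fold. Ephb1 fell by 1.16 log2, from 4.96 (4.72 to 5.29) at P0 to 3.80 (3.68 to 4.28). Ephb3 instead rose by 1.03 log2, from 2.12 (1.45 to 2.4) at P0 to 3.15 (2.73 to 3.41) in adults, which is close to its e12.5 median of 3.20 (2.84 to 3.5).

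The ephrin-B ligands, transmembrane proteins, were among the most abundant of the 38 genes. Efnb1 was the highest of all 38 at e12.5, at 6.36 (6.03 to 6.65), and its later medians were 5.84 (5.48 to 5.95), 4.87 (4.72 to 5.15), 4.48 (4.25 to 4.97) and 2.89 (2.70 to 3.93), with overlap only between e17.5 and P0. It fell by 1.35 log2 from e14.5 to P0 and by 1.60 log2 from P0 to adulthood. The sum of dividing progenitor markers (6 of 6 in the table, such as Mki67 and Sox2) moved in the same direction, with medians of 551, 241, 96.5, 77.5 and 34.7 RPKM at the 5 stages. Of these markers, Hes5 did not fall after e17.5 (11.9, 11.7 and 12.0 RPKM). In adults most of the sum came from Sox2 (19.5) and Hes5, with Mki67 at 0.237 and Top2a at 0.666. The part of these markers in the course of Efnb1 was not tested. Efnb2, at 5.78 (5.35 to 5.94) at P0, was 4.15 (3.82 to 5.29) in adults, a fall of 1.63 log2. Efnb3 was the highest of the 38 from e14.5 to P0, at 6.25 (6.07 to 6.44), 6.40 (6.25 to 6.97) and 6.68 (6.38 to 6.74), and fell by 1.10 log2 to 5.58 (5.26 to 5.97) in adults, where it was still 3rd.

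Efna5, the ephrin-A ligand of the list and held to the membrane by a lipid anchor, rose after birth where the ephrin-B genes fell. It was 3.20 (3.02 to 3.55) at e12.5, 2.23 (1.87 to 2.47) at e14.5, 1.96 (1.65 to 2.65) at e17.5, 2.30 (2.07 to 2.85) at P0 and 3.17 (2.92 to 3.58) in adults. The e14.5 libraries lay below all those of e12.5, and the adults lay above all those of P0 by 0.87 log2 between medians.

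Among the semaphorins, Sema7a had a rise at nearly every step. Sema7a, a lipid-anchored semaphorin known to promote axon growth, had medians of 2.84 (2.62 to 3.11) at e12.5, 4.23 (4.11 to 4.44) at e14.5, 4.95 (4.58 to 5.23) at e17.5, 5.41 (5.09 to 6.02) at P0 and 6.51 (6.28 to 6.80) in adults. Neighbouring ranges met only between e17.5 and P0. The rise was 1.18 log2 (2.27-fold) from e14.5 to P0 and 1.10 log2 (2.14-fold) from P0 to adulthood, and took it from 31st of the 38 genes in level at e12.5 to the highest in adults.

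The class 3 semaphorins are secreted and signal through neuropilins and plexin-A receptors. Sema3c rose by 0.45 log2 from 3.5 (3.08 to 3.78) at e14.5 to 3.95 (3.84 to 4.59) at P0 and fell by 1.07 log2 to 2.88 (2.69 to 3.58) in adults, with its highest median, 4.44, at e17.5. Sema3f, whose repulsion depends on neuropilin 2, was between 3.28 and 3.74 before adulthood and 2.51 (2.32 to 3.17) in adults, a fall of 1.09 log2 from P0. Sema3a, which repels through neuropilin 1, rose between e14.5 and e17.5, from 2.55 (2.42 to 2.69) to 3.15 (2.95 to 3.5), and overlapped between P0, at 2.83, and adults, at 2.38.

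The membrane-spanning semaphorins among the guidance genes described here, Sema5a, Sema6a and Sema6d, were lower in adults than at P0 or had overlapping ranges. Sema6a, which binds plexin-A receptors directly, rose by 0.46 log2 from 3.27 (3.17 to 3.52) at e14.5 to 3.73 (3.59 to 4.49) at P0 and fell by 1.21 log2 to 2.52 (2.06 to 3.16) in adults. Sema6d, of the same class, fell by 0.48 log2 from 3.71 (3.51 to 4.03) at P0 to 3.23 (2.95 to 3.39) in adults. Sema5a had medians of 3.47, 3.05, 2.12, 1.89 and 2.21 at the 5 stages, and although its P0 median was 1.16 log2 below that of e14.5, the ranges of 1.71 to 2.37 and 2.32 to 3.45 overlapped.

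The neuropilins, co-receptors that bind class 3 semaphorins, both fell after birth. Nrp2 stayed between medians of 4.38 and 4.68 from e12.5 to P0 and was 1.95 (1.3 to 3.42) in adults, below the P0 range of 4.08 to 5.0 by 2.73 log2 or 6.62-fold between medians. Nrp1 was 3.43 (3.18 to 3.63) at e12.5, 4.54 (4.21 to 4.80) at e14.5, 4.94 (4.82 to 5.26) at e17.5, 4.41 (4.17 to 4.78) at P0 and 2.95 (2.71 to 4.06) in adults. Every neighbouring pair of its 5 ranges was apart, with rises up to e17.5 and falls after it, and the fall from P0 to adulthood was 1.46 log2.

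Of the plexins, the signalling receptors of the semaphorins, Plxna3 fell most, from 4.61 (4.48 to 5.04) at P0 to 2.47 (1.87 to 3.82) in adults, by 2.14 log2 or 4.40-fold. Plxna1 fell by 1.02 log2, from 5.13 (4.85 to 5.65) to 4.11 (3.87 to 4.78). Plxna2 and Plxna4, at 4.28 (3.72 to 4.84) and 3.38 (2.98 to 4.17) in adults, overlapped with P0, and adult library 1 was the highest adult for both. Plxnd1, known as the receptor for Sema3e, rose by 0.76 log2 from 4.10 (3.81 to 4.24) at e14.5 to 4.86 (4.45 to 5.20) at P0 and held a median of 4.68 (3.96 to 4.93) in adults. Plxnb1, a receptor for Sema4d, had medians of 5.06, 4.73, 4.13, 4.12 and 3.81 at the 5 stages and was lower at e17.5 than at e14.5, with overlap in both main comparisons.

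The steps between neighbouring stages place these changes in time. From e12.5 to e14.5, 12 of the 38 genes were higher, when 23.1% of all genes were, and 8 were lower, when 22.3% were, with the change in read type falling between these stages. The genes that were higher by more than 1 log2 were Unc5d (2.47), Unc5a (1.71), Plxna4 (1.43), Sema7a (1.39), Draxin (1.16) and Nrp1 (1.11). From e14.5 to e17.5, 9 genes were higher, when 13.1% of all genes were, among them both Robo receptors, Sema3c (0.94 log2) and Nrp1 (0.40 log2), and 3 were lower, when 12.1% were. Those 3 were Efnb1 (−0.97 log2), Ephb3 (−0.73 log2) and Plxnb1 (−0.60 log2). From e17.5 to P0, 3 genes were lower, when 6.28% of all genes were, namely Epha3 (−0.87 log2), Nrp1 (−0.54 log2) and Draxin (−0.36 log2), and 0 were higher, when 4.89% of all genes were.

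Because each library supplies both values, the ratio of a pair of family members within a library does not depend on how libraries were scaled, apart from the prior count. The 6 pairs below were chosen after their values were seen, and the ratios are a description. Unc5a relative to Dcc had a median log2 ratio of −2.71 (−3.01 to −2.41) at e12.5, −0.43 (−1.16 to 0.33) at e14.5, 1.0 (0.61 to 1.55) at e17.5, 1.53 (1.03 to 1.82) at P0 and 4.44 (2.95 to 4.84) in adults. Of this pair, Dcc was thus the more abundant RNA in all 8 libraries at e12.5, and Unc5a in all libraries from e17.5 on. The other Unc5 receptors did not share this timing. At e17.5 the medians of Unc5b (1.85), Unc5c (2.03) and Unc5d (2.95) were below that of Dcc (3.29), as they were at P0. In adults their medians (2.94, 2.1 and 2.65) were above that of Dcc (1.22). Whether the balance of attraction and repulsion changed was not tested.

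Robo2 relative to Robo1 ran from −1.31 (−1.45 to −1.03) at e12.5 through −0.23 (−0.28 to −0.14), 0.01 (−0.17 to 0.14) and 0.22 (0.06 to 0.42) to 1.48 (0.55 to 1.75) in adults. Every library of e12.5 and e14.5 had more Robo1, and every library of P0 and of adults had more Robo2. Slit3 relative to Slit2 was below 0 in every library up to P0, where its median was −0.65 (−1.24 to −0.41), and above 0 in all 6 adults, at 0.81 (0.60 to 1.15).

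Efnb3 relative to Efnb1 ran from −0.57 (−0.90 to −0.18) at e12.5 to 0.47 (0.31 to 0.88) at e14.5 and 2.05 (1.57 to 2.47) at P0, so the leading ephrin-B ligand changed between e12.5 and e14.5, where the read type also changed. Ephb1 relative to Ephb2 was −1.56 (−1.81 to −1.17) at e12.5, 0.00 (−0.25 to 0.23) at P0 and 1.13 (0.24 to 1.28) in adults. Nrp1 relative to Nrp2 was −0.92 (−1.18 to −0.83) at e12.5, 0.51 (−0.02 to 1.03) at e17.5, −0.19 (−0.52 to 0.54) at P0 and 0.96 (0.64 to 1.60) in adults, so this ratio went up, down and up again.

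**Figure D4:**
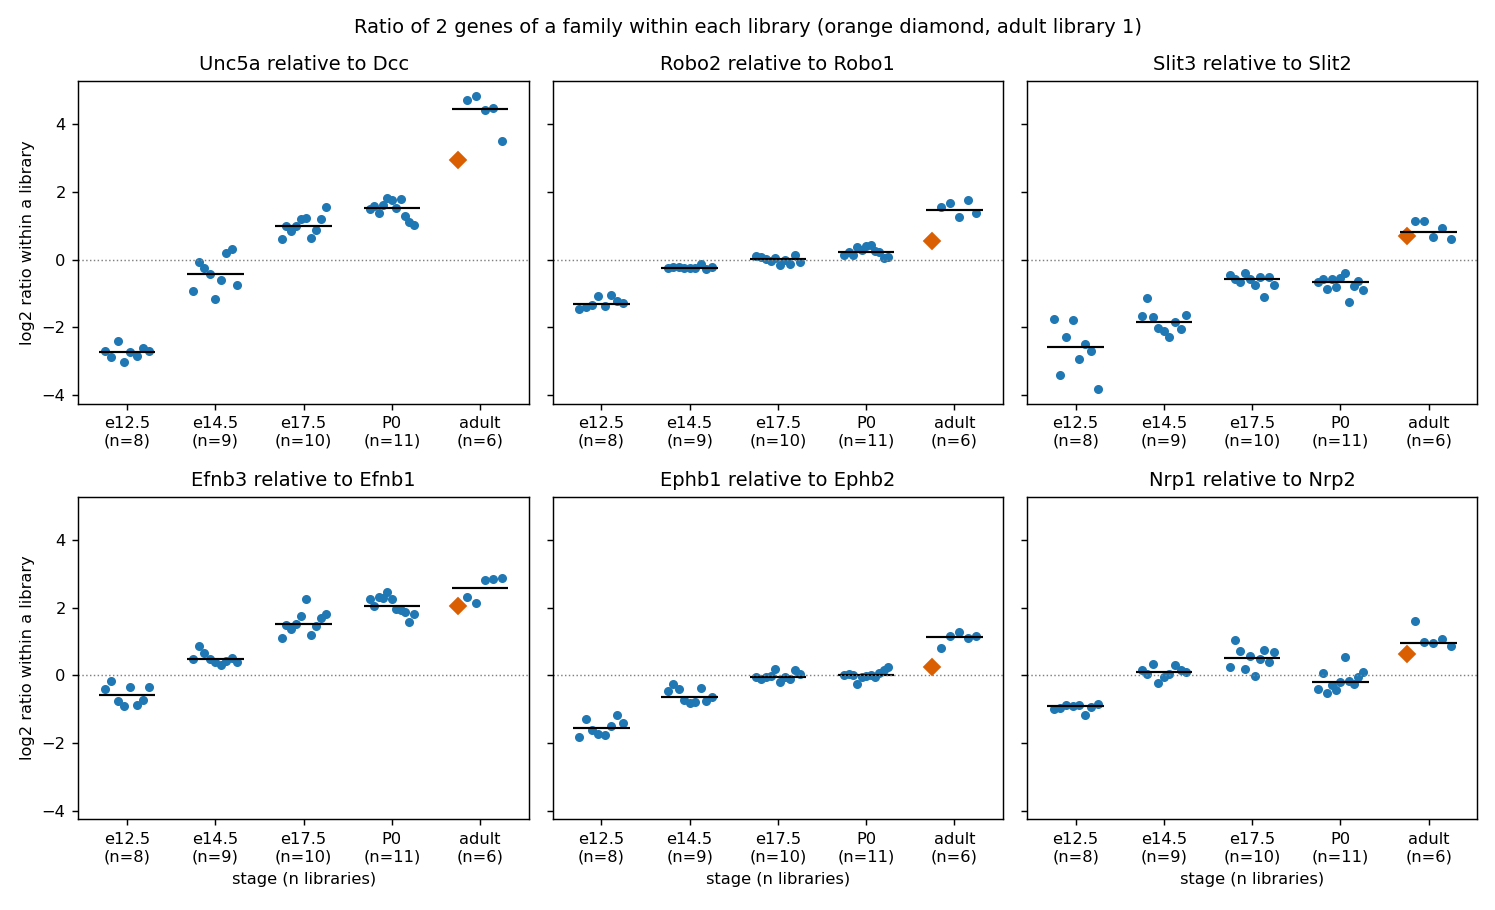
Log2 ratio of a pair of genes within each library (points), by stage, with the stage median as a line, 0 as a dotted line and adult library 1 as an orange diamond. Unc5a relative to Dcc climbs from a median of −2.71 at e12.5 to 4.44 in adults, and adult library 1 is the lowest adult, at 2.95.

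Within stages, the likeness of guidance genes between libraries ranged widely. Over the 38 libraries from e12.5 to P0, with each stage centred on its mean, the median Pearson r of the 703 pairs of genes was 0.23 (quartiles −0.04 and 0.43). The pairs most alike were Robo2 with Epha5 (r = 0.88), Plxna2 with Plxna4 (0.83), Robo1 with Robo2 (0.83), Slit1 with Plxna1 (0.82), Robo2 with Plxna4 (0.81) and Slit1 with Slit2 (0.80). The least alike were Ephb3 with Efnb2 (−0.64), Sema7a with Nrp2 (−0.62) and Ephb1 with Plxnd1 (−0.59). All genes of a library share its dissection, its cells and its depth, and these values are a description, with no value for other genes beside them. The e17.5 columns carry 5 libraries of each of a pair of number series in their names, and the largest difference between them among the 38 genes was 0.22 log2. Ranges were apart for 0 of the 38 genes and for 1 of all 12102, so the guidance genes were at the background.

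Of a wider list of 84 genes of the same pathway, which holds further ligands and receptors, co-receptors and the cytoskeletal regulators downstream of them, 77 were in the table and 76 passed the filter. From e14.5 to P0, 30 of the 76 were higher and 13 lower, when 22.7% and 23.1% of all genes were, with a median difference of 0.17 log2. From P0 to adulthood 18 were higher and 26 lower, when 29.3% and 25.2% of all genes were, with a median of −0.28 log2. Without adult library 1, 32 were lower, when 30.0% of all genes were. Among the largest changes up to P0 were rises in Mical2 (3.25 log2), which encodes an actin-oxidising enzyme, and Ngef (2.23 log2), an exchange factor that acts downstream of Eph receptors. After P0 the largest were falls in Gpc2, a proteoglycan of growing axons, from 6.30 (6.02 to 6.61) to 0.25 (−0.08 to 5.11), and Efna4, an ephrin-A ligand, from 2.53 (1.84 to 2.82) to −1.97 (−2.60 to 1.33). Mical2 rose further, from 2.99 (2.74 to 3.56) to 6.32 (6.06 to 6.76). Efna4 thus fell where the ephrin-A ligand Efna5 rose.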

How the data were processed

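Per the labels, forebrain polyadenylated RNA was made into stranded libraries, and the authors deposited an expression table of log RPKM values, taken here as log2 RPKM. The submitters' processing notes name STAR 2.4.2a, bcl2fastq and build mm9, among others. How reads were counted, with which annotation, and how libraries were scaled is not given in the sources used here. Log base 2 was read from the values, mainly those of e14.5. At e14.5, for 57 genes whose lowest value recurs, a median of 73.9% of low values lay within 0.03 of whole steps when read as log2, and 41.7% as natural log. The share was also higher as log2 in every P0 library. It was higher as natural log in most e17.5 libraries, such as library 1 (31.2% against 20.7%), and in e12.5 libraries 4 and 7. Adult libraries had too few low values for this check.

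A filter removed 56 of 12158 genes, those whose mean over libraries was −2 log2 RPKM or less. Libraries were numbered within a stage in table order, which is only a name. Stages were described by medians and ranges, with Python 3.11.15, numpy 2.4.6 and pandas 2.3.3, because no library has a genotype. The planned genotype comparison was not run for that reason. The range comparison was tested on simulated data. The members, the wider list and the markers were chosen with earlier results of these data known. All 38 genes are named, and of the wider list the 3 with the largest difference in each main comparison whose ranges were apart, except 1 that is not reported here. Alternatives were scaling, prior, filter, call rule and each library left out. The ChIP peak list was not used here.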

Additional observations from a re-analysis of the deposited data

Results flagged for a closer look

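The highest or lowest library of a stage lay far from the others, by the gap relative to the whole range, in 16 of 152 sets of a gene and a stage with 6, 8, 9 or 10 libraries. Chance flags about 1 in 20 sets, or 7.6 here, and the 11 P0 libraries were not searched. Adult sets gave 10 of the 16, and 9 of those 10 were adult library 1 as the highest. These were, in log2 RPKM with the next highest adult, Draxin 4.01 (−1.74), Robo1 4.39 (2.94), Epha3 2.82 (0.99), Ephb2 4.04 (2.99) and Ntn1 2.47 (1.43). They were also Efnb2 5.29 (4.33), Sema3c 3.58 (3.01), Ephb1 4.28 (3.90) and Plxnb1 4.11 (3.88). Plxnd1 was lowest in adult library 4, at 3.96, below the next at 4.57. Over the whole table, adult library 1 was the highest adult for 29.9% of genes and for 72.8% of genes lower in adults. Flags from 1 library are not independent of each other, so 7.6 is only a rough guide. The share of flagged sets over all genes was not computed.

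Before birth, e12.5 library 3 was lowest for Robo2, at 3.60, and for Plxna4, at 2.06, and e12.5 library 4 was highest for Sema3c, at 3.40. Unc5b was lowest in e14.5 library 3, at 1.98. In e17.5 library 6, Epha4 was lowest, at 4.65, and Efnb3 highest, at 6.97.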

How the results depend on the processing

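Under quantile normalization, median centring, log2(RPKM + 1), no filter and a stricter filter, all 38 calls of adult against P0 were as given. The shares of all genes higher and lower in adults moved to 25.6% and 29.7% under quantile normalization. Under median centring they were 26.1% and 29.5%. When medians also had to differ by at least 1 log2, 2 of the 38 calls were lost, when 16.2% and 13.2% of all genes were higher and lower. For P0 against e14.5, quantile normalization added Sema5a as lower, when 23.9% of all genes were. Median centring added Ephb1 (0.51 log2) and Sema3a (0.33 log2) as higher, for 10 higher genes, when 24.1% of all genes were. No called difference changed sign in any alternative. Differences near 0 of genes with overlapping ranges did, such as Sema3f (−0.01 to 0.05 for P0 against e14.5, under quantile normalization). Leaving out 1 library at a time gave 20 to 22 lower and 6 to 7 higher genes for adult against P0. The 22 were reached without adult library 1, when 30.0% of all genes were lower. For P0 against e14.5, leaving out 1 library at a time gave 8 to 9 higher and 4 to 6 lower. Shares of all genes for the other omissions are not given here. The same omissions gave 3 to 5 lower for e17.5 against e14.5 and 0 to 1 higher for P0 against e17.5. The 5 were reached without e17.5 library 1 or e14.5 library 7, and the 1 without P0 library 3 or e17.5 library 8. When medians also had to differ by at least 1 log2, 1 gene was higher for P0 against e14.5 (11% of all genes), 6 higher and 0 lower for e14.5 against e12.5 (9.2% and 6.4%), 0 higher and 0 lower for e17.5 against e14.5 (4.7% and 3.4%), and 0 lower for P0 against e17.5 (0.4%). Median centring left 1 lower for P0 against e17.5 (6.0%). With the second number series of e17.5 alone, 5 were lower against e14.5 (16.4% of all genes), and with the first alone, 2 were higher and 5 lower at P0 (11% and 11.1%), in choices made after seeing the data. Fewer libraries make ranges narrower. Depth is unknown, so low values such as adult Draxin have unknown counting error. No paired analysis was possible because the columns carry no replicate numbers that the labels explain.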
